A study of Mus musculus with 14 samples.

Results

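Acetylation of histone H3 at lysine 9 (H3K9ac) was examined at 40 genes of autophagy and the lysosome in regenerating mouse liver. The genes were chosen by name, and a peak was assigned to a gene when it overlapped the gene's mm10 RefSeq span extended by 2 kb on each side. They are 40 of 21887 protein-coding genes, and their spans held 1202 of 357969 deposited peaks. The peaks fell into 164 of 57979 consensus regions, each made by merging overlapping peaks of the 12 libraries. Of these regions, 49 of the 12375 called in all 12 libraries could be tested for tags and called length. All 40 genes had a peak in every library and at least 1 tested region, so no member was lost to a filter. The genes fall into 13 of initiation and membrane supply, 12 of conjugation, 4 cargo receptors, 3 transcription factors and 8 lysosome genes.

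Regenerating liver of male C57BL6/J mice, 2 to 3 months old, was harvested 12 h after partial hepatectomy, the surgical removal of most of the liver that sets off regrowth. Chromatin was precipitated with an AcH3K9 antibody and sequenced, in 6 libraries titled d22 and 6 titled pbs, and the study asked what delaying the fall in blood glucose after the operation does to this mark. Title and treatment label disagree: d22 libraries carry the label vehicle (1/2 strength PBS) and pbs libraries carry dextrose (22.5% in vehicle). Groups are therefore named by title, differences are taken as d22 minus pbs, and no group is identified here as the dextrose-treated one. Both input libraries carry dextrose as well. Whether the 6 libraries of a group came from different mice is not stated, so the p-values speak of variation among these libraries, some of which could be technical.

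In autophagy, a membrane sac encloses cytoplasm and delivers it to the lysosome, where acid hydrolases break it down. The ULK kinase complex and the lipid kinase complex around Becn1 start the sac, ATG conjugation enzymes attach LC3 and GABARAP proteins to it, and receptors such as p62 hold cargo against them. The pathway supplies nutrients in fasting liver, mTORC1 restrains the ULK kinases when nutrients are plentiful, and TFEB, TFE3 and MITF drive lysosome and autophagy genes. H3K9ac is a mark of active promoters and enhancers.

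Depth ran from 6343891 tags after filtering in d22 4 to 13259411 in pbs 1. Library d22 4 stood apart, with 44585 peaks against 26352 to 30780 in the other libraries, and with 143 member peaks against 85 to 108. All d22 libraries were called against one pooled input (12526421 tags) and all pbs libraries against another (10409931 tags), so a difference between the inputs and one between the groups cannot be told apart. Tags were 48 bp long in pbs 1, pbs 4 and pbs 6 and 49 bp in all others. In whole liver, a change of the mark within a cell type and a change in the mix of cells cannot be told apart. All 8 hepatocyte markers had a tested region, and their summed level was 1915 to 2282 CPM in d22 and 2084 to 2440 CPM in pbs. Their median log2 fold change was -0.26, 0 of 8 passed and 4 of 8 had an unadjusted p under 0.05, against 10.9% of all regions; the part of this in the member values was not tested. A tested region was found for 1 of 8 macrophage, 1 of 7 neutrophil, 2 of 7 endothelial, 0 of 7 stellate and 1 of 6 cholangiocyte markers. The defining macrophage genes Adgre1 and Csf1r were among those without one.

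As a set, member regions were acetylated a little more densely and over longer stretches than the typical tested region, though not in every role. Level is given here as tags per kb of called peak, per 1e+06 of the library's tags in tested regions. Unlike CPM (counts per 1e+06), it was not scaled by edgeR. The median over the 49 member regions was 36.2, against 31.7 over all 12375 regions, which put the median member at the 65.2 percentile. The median called length was 2473 bp against 1930 bp. On this per-length scale the densest member region was Gabarap region 1 at 121, which lies past the 3' side of Gabarap at the neighbouring gene Phf23. The widest was the region of Sqstm1, which encodes the cargo receptor p62, with 10020 bp called on average. At the other end, the second region of Bnip3 had 16.7 and Ulk1 region 3 had 18.5 tags per kb. Median lengths were 2411 bp for initiation, 2326 bp for conjugation, 3506 bp for receptors, 1861 bp for transcription factors and 2858 bp for lysosome genes, over all their tested regions.

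**Figure D1:**
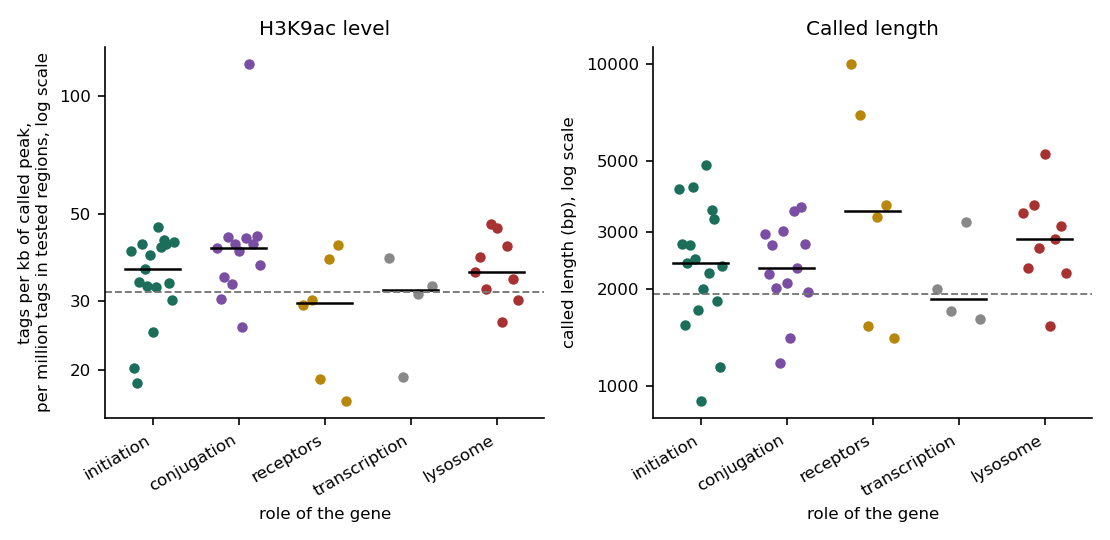
Each point is a tested member region, by role; the left panel plots the mean level over 12 libraries (tags per kb of called peak, scaled as CPM, log scale) and the right panel the mean called length (bp, log scale). Black bars are medians of a role and dashed lines the medians of all 12375 tested regions, 31.7 and 1930 bp; Gabarap region 1, at 121 tags per kb, stands above all other member regions.

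The promoter windows show what sequence lies under these peaks. RefSeq windows of 300 bases (250 before to 50 after the start, GRCm38.p6) were listed for 33 of the 40 members, and for 32 of these a start lay inside a tested region. Rb1cc1, Becn1, Pik3c3, Atg12, Atg16l1, Map1lc3a and Ctsb were not listed, and the listed start of Atg7 lay outside its region. The palindrome CACGTG (the E-box) was found in 9 of 39 member windows (23.1%), against 7.15% of 32851 windows and 10.6% of the 11513 windows whose start lies in a tested region. Its extension TCACGTGA, the core of the CLEAR element that TFEB binds, was found in the windows of Ctsd, Mcoln1 and Atg3, or 7.69% against 0.974% and 1.97%. Each TCACGTGA contains a CACGTG, and both read the same on either strand. The FoxO motif GTAAACA, sought on both strands, was in 0 member windows against 3.65% and 2.88%. These matches are a description of the letters and not of binding.

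Windows of 6 described members follow, 5′ to 3′ on the gene's strand. The first 3, of the protease gene Ctsd, the lysosomal channel gene Mcoln1 and the conjugating enzyme gene Atg3, are shown because they hold the full element, in capitals. The windows of Lamp1 and Atg14 hold CACGTG, in capitals, and that of Ulk1 is shown because its regions 2 and 3 had the highest estimates of all members, and it holds none of the 3 motifs.
Ctsd, chr7:142387778-142388077, minus strand: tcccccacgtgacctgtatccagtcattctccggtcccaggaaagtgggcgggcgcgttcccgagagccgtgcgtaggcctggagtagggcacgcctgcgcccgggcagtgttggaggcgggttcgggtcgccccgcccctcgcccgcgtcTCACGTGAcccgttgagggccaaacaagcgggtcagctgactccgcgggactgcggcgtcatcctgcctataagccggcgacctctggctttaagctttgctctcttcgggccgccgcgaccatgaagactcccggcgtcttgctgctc
Mcoln1, chr8:3500269-3500568, plus strand: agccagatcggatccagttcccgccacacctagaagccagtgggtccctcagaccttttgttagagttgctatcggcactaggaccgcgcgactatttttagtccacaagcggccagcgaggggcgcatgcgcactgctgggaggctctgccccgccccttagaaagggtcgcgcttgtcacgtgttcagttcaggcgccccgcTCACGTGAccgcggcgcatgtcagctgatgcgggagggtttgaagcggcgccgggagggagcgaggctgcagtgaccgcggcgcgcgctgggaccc
Atg3, chr16:45158579-45158878, plus strand: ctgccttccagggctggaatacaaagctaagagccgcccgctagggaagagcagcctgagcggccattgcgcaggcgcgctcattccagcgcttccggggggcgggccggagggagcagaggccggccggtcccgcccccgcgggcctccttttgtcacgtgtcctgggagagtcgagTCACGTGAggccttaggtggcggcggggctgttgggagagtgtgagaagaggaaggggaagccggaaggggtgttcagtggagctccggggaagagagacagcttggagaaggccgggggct
Lamp1, chr8:13158911-13159210, plus strand: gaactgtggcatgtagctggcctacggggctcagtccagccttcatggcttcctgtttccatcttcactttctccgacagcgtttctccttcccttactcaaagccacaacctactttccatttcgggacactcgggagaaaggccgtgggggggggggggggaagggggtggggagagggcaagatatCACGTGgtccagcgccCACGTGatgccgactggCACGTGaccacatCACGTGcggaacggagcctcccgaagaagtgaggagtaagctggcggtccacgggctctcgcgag
Atg14, chr14:47568385-47568684, minus strand: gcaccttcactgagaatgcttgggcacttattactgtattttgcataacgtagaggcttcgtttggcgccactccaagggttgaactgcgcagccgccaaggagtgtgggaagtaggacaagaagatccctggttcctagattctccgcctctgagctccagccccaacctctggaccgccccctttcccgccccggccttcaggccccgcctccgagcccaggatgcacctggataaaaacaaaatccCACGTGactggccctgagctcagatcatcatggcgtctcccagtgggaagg
Ulk1, chr5:110810032-110810331, minus strand: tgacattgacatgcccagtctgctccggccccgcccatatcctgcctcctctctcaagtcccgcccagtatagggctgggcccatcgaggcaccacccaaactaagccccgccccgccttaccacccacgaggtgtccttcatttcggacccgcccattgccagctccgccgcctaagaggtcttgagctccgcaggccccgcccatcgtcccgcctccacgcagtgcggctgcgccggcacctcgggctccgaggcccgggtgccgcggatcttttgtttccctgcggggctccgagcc
In Lamp1, which encodes an abundant lysosomal membrane protein, the 4 copies begin 61, 45, 28 and 15 bases before the start. The element begins 99 bases before the start in Ctsd, 46 in Mcoln1 and 72 in Atg3.

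No member region differed between the title groups after adjustment. By tags, 0 of 49 regions passed at an adjusted p under 0.05 in edgeR, where 125 of all 12375 regions (1.01%) did. At an unadjusted p under 0.05 there were 7 of 49, against 10.9% of all regions: Ulk1 regions 1, 2 and 3, Optn, Rb1cc1, Wipi1 and Tfeb region 2. By called length, 0 of 49 passed in limma, as did 0 of 12375 (0.0%), and 6 of 49 had an unadjusted p under 0.05 against 6.81%. The title groups overlapped in every member region by tags (0 of 49 without overlap, against 1.33%) and by length (0 of 49, against 0.396%). DESeq2 called 1 of 49 member regions, Ulk1 region 1, at an adjusted p of 0.0206, where it called 272 of all 12375 regions.

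The differences were small for most members. In 42 of 49 regions (85.7%, against 79.9% of all regions) the log2 fold change of tags was under 0.25 in size. Estimate plus and minus 2 standard errors stayed within a 1.5-fold change either way in 43 of 49 regions. The others were Ulk1 regions 1, 2 and 3, Wipi1, Bnip3 region 2 and Tfeb region 2. The median log2 fold change of tags over the lead regions (the tested region of each gene with the most tags) was -0.05 over 40 genes, against 0.00 over all regions. The median for called length was -0.10 over these 40, with 33 of them negative, against -0.08 over all regions, of which 70.9% were negative.

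**Figure D2:**
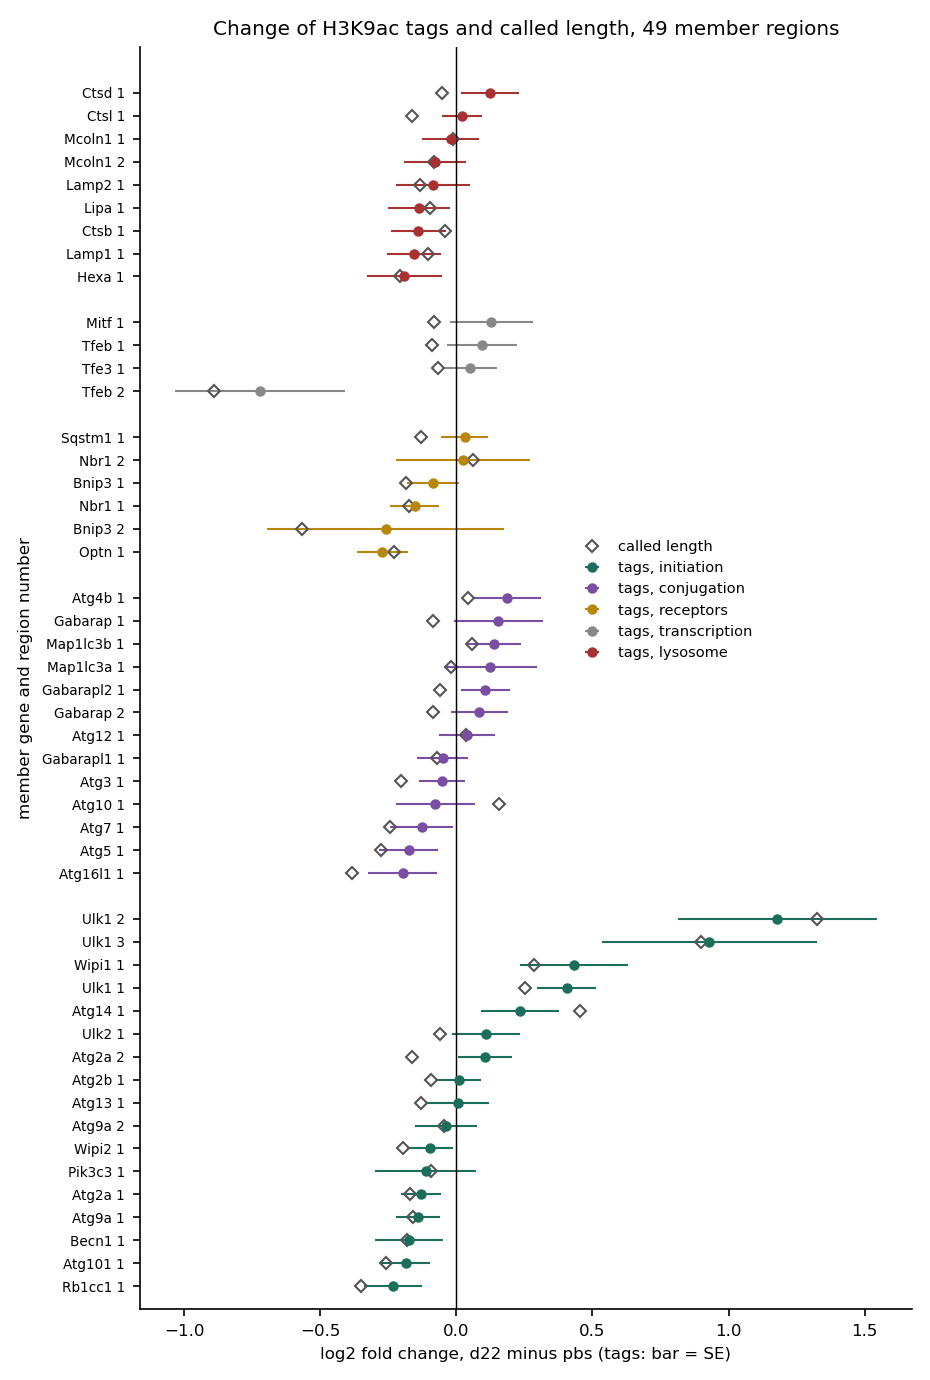
Filled circles give the log2 fold change of tags with its SE and open diamonds that of called length (d22 minus pbs, 6 libraries each) for all 49 member regions, grouped by role and ordered by the change of tags. Most circles sit within 0.25 of 0; the 3 Ulk1 regions and Wipi1 lie to the right of that range, and Optn, Bnip3 region 2 and Tfeb region 2 to the left.

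The roles gave medians close to each other. The median log2 fold change of tags over lead regions was -0.10 for 13 initiation genes, -0.01 for 12 conjugation genes, -0.12 for 4 receptors, 0.09 for 3 transcription factors and -0.11 for 8 lysosome genes. Per kb of called peak these medians were 0.10, 0.13, 0.06, 0.19 and 0.00, against 0.09 over all regions. The 4 negative ones thus lost their sign on a scale where the median of all regions also moved up. With library totals as the scaling the median of all 49 member regions was -0.27, and that scaling moved the median of all regions down as well. Of the lysosome genes 6 of 8 were negative, as were 7 of 13 initiation and 6 of 12 conjugation genes, against 49.1% of all regions. Each library's position can be read as the median deviation of its log2 CPM from the 12-library mean over the lead regions of a role. For initiation it ran from -0.22 to 0.07 in d22 libraries (median -0.01) and from -0.04 to 0.10 in pbs libraries (median 0.01). For conjugation it ran from -0.03 to 0.08 (median 0.04) and from -0.04 to 0.16 (median 0.00). For lysosome genes it ran from -0.20 to 0.13 (median -0.06) and from -0.02 to 0.10 (median 0.03). In all 3 roles the libraries of the title groups overlapped.

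Regions 2 and 3 of Ulk1, in its gene body, had the highest estimates of tags among the 49, above that over its start; the difference between its regions was not tested. Ulk1 encodes the kinase that receives the mTORC1 and AMPK signals, and its span (chr5:110784489-110810120, minus strand) held 3 tested regions. Region 1 (chr5:110805494-110810364) covers the start, from 283 bases before it to 4587 after. Region 2 (chr5:110799483-110804386) lies 5695 to 10598 bases and region 3 (chr5:110796265-110799212) 10869 to 13816 bases downstream. Regions 2 and 3 are not the lead region and are described because of their values.

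In Ulk1 region 1 the level was 171, 180 and 220 CPM (lowest, median and highest of the d22 libraries) and 113, 140 and 173 CPM in the pbs libraries. All d22 libraries but d22 4 lay above every pbs library. This gave a log2 fold change of 0.40 ± 0.11 (SE), with a p of 0.00143 and an adjusted p of 0.0938 in edgeR. Without pbs 6 the adjusted p was 0.0478, and with library totals as the scaling the log2 fold change was 0.16 with an unadjusted p of 0.262.

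In Ulk1 region 2 the level in d22 1 to d22 6 was 110, 63.8, 45.6, 90.1, 96.8 and 91.6 CPM. In pbs 1 to pbs 6 it was 65.5, 9.49, 10.9, 21.1, 40.6 and 60.4 CPM. Libraries pbs 1 and pbs 6 lay within the d22 range and the other pbs libraries below it. Region 2 had a log2 fold change of 1.18 ± 0.37 (SE) with an adjusted p of 0.178, and 18 of 12375 regions (0.145%) had one as high or higher. In Ulk1 region 3 the levels were 47.2, 23.5, 34.2, 59.8, 36.3 and 38.6 CPM in d22 and 41.1, 10.5, 8.00, 12.8, 7.29 and 39.4 CPM in pbs. Again pbs 1 and pbs 6 were among the d22 libraries and the other pbs libraries were below them all. Its log2 fold change was 0.93 ± 0.39 (SE), adjusted p 0.399.

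The called length followed the tags, which are summed over called peaks only and so depend on it by construction. Over the 3 Ulk1 regions, each d22 library had 9331 to 10480 bp called. Of the pbs libraries, pbs 1 had 10219 bp and pbs 6 had 9756 bp, while pbs 2 had 3913, pbs 3 had 3571, pbs 4 had 6462 and pbs 5 had 7121 bp. The log2 fold change of length was 0.25 in region 1, 1.33 in region 2 and 0.90 in region 3, none past the adjusted threshold in limma (adjusted p 0.795, 0.519 and 0.713). Per kb of called peak the log2 fold change of tags was 0.18, 0.26 and 0.44 in regions 1, 2 and 3.

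Genome-wide properties of the libraries moved with part of this pattern. Libraries pbs 1 and pbs 6 had the widest called genome of all 12, 43.5 and 44.7 Mb, and most tags in tested regions. The narrowest, pbs 3 with 29.3 Mb, also had the shortest called length at Ulk1, and pbs 2, pbs 4 and pbs 5 lay between in both (33.3, 35.0 and 36.7 Mb). In the d22 libraries 29.6 to 43.0 Mb were called. There the narrowest, d22 5, had 10078 bp at Ulk1 and the widest, d22 1, had 10480 bp. The part of called width in the result was not tested. Libraries pbs 1 and pbs 6 also had 48 bp tags, as did pbs 4, which was low in regions 2 and 3. No d22 library had 48 bp tags, so a comparison within that length could not be made. The 49 bp libraries are 6 d22 and 3 pbs libraries. They leave out pbs 1 and pbs 6, the highest pbs libraries in all 3 Ulk1 regions, which by itself raises d22 minus pbs. Among the 49 bp libraries the log2 fold changes were 0.60, 1.96 and 2.19 for regions 1, 2 and 3. Their adjusted p were 0.0433, 0.0587 and 0.0114 in edgeR, where 39 regions passed in all. These values cannot separate tag length from the choice of libraries. The part of tag length in the result was not tested.

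**Figure D3:**
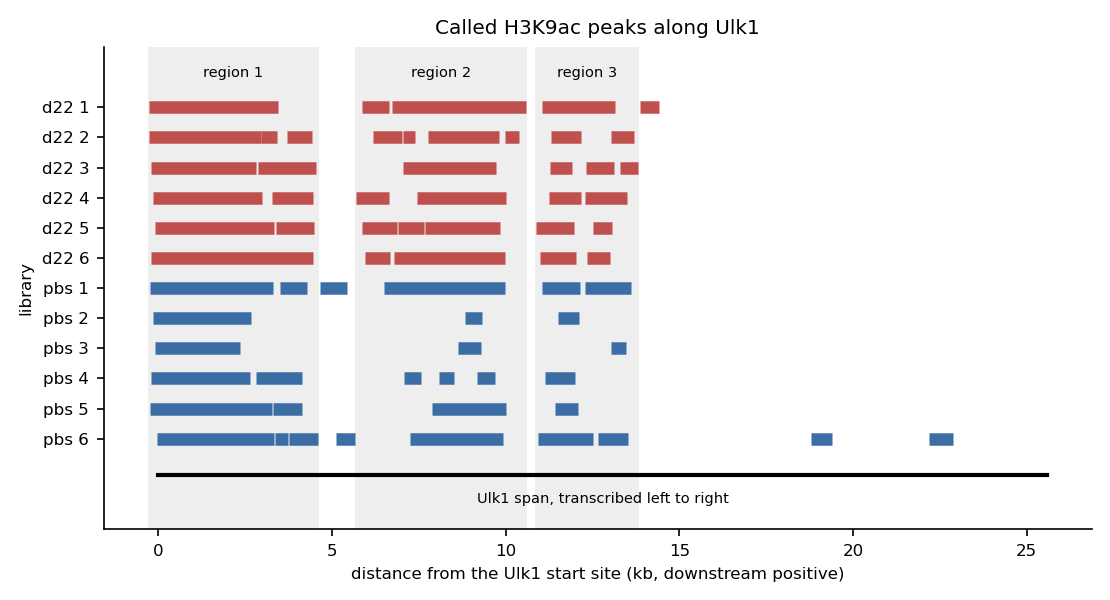
Bars are the deposited H3K9ac peaks of each library along Ulk1, against distance from its start site (kb, downstream positive); grey bands mark the 3 tested regions and the black line the gene. Peaks cover most of regions 1 and 2 in the d22 libraries, pbs 1 and pbs 6, while pbs 2 and pbs 3 have short peaks beyond region 1.

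**Figure D4:**
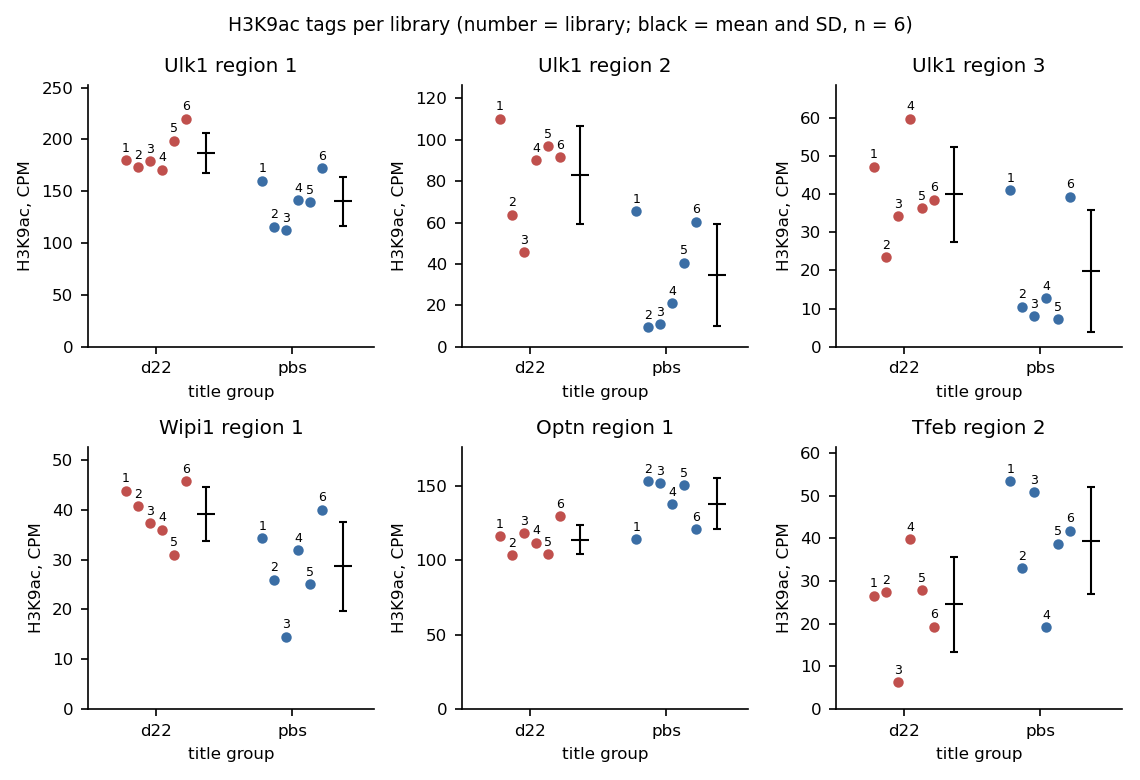
Points are single libraries, numbered as in their titles, in CPM scaled to tags in tested regions, and black marks show mean and SD of 6 libraries. In Ulk1 region 3, pbs 1 (41.1) and pbs 6 (39.4) lie among the d22 libraries; in Wipi1, Optn and Tfeb region 2 the groups overlap as well.

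The partners of Ulk1 in the kinase complex had estimates from -0.23 to 0.00, and none passed. At Rb1cc1, the scaffold of the complex (chr1:6213118-6216370), the level was 55.0, 74.4 and 83.9 CPM in d22 and 76.3, 86.2 and 101 CPM in pbs (lowest, median, highest), and 4 of 6 d22 libraries were below every pbs library. The log2 fold change was -0.23 ± 0.11 (SE) with an adjusted p of 0.435, and 0.11 per kb of called peak; it was the lowest tag estimate of the initiation lead regions. Atg101, a bridging subunit, had 103, 145 and 154 CPM in d22 against 153, 158 and 165 CPM in pbs, again with 4 of 6 d22 libraries below the pbs range. Its log2 fold change was -0.19 ± 0.09 (SE), adjusted p 0.471, with -0.12 without d22 4, its lowest library, and 0.06 per kb. Atg13, the adaptor subunit whose region is shared with Harbi1, was at 0.00, and Ulk2, the second kinase, at 0.11.

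In the lipid kinase complex, Becn1 (-0.17) and the catalytic Pik3c3 (-0.11) had small negative log2 fold changes. Atg14, the subunit that directs the complex to autophagy, had 55.8, 61.9 and 102 CPM in d22 and 46.0, 59.9 and 65.9 CPM in pbs. Library d22 4 gave the highest value, and the log2 fold change of 0.23 ± 0.14 (SE), adjusted p 0.604, was 0.11 without it. The called length of Atg14 had a log2 fold change of 0.45, and 0.30 without d22 4.

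Of the genes that supply and mark the growing membrane, Wipi1 had the highest lead estimate of all 40 members. Wipi1 encodes a reader of the lipid that the kinase complex makes. Its region (chr11:109610006-109611682) had 31.0, 39.1 and 45.8 CPM in d22 and 14.5, 29.0 and 40.1 CPM in pbs, and 3 of 6 d22 libraries lay above every pbs library. The log2 fold change was 0.43 ± 0.20 (SE), adjusted p 0.440. It ran from 0.31 without pbs 3, the lowest library, to 0.55 without pbs 6. Other settings gave 0.23 per kb of called peak, 0.21 with library totals and 0.82 among the 49 bp libraries. Its paralog Wipi2 was at -0.10. The lipid transfer gene Atg2a had its lead region past its 3' end, with 185, 209 and 230 CPM in d22 and 216, 227 and 248 CPM in pbs (-0.13 ± 0.07, SE, adjusted p 0.561), while the region over its start was at 0.10. Atg9a, whose protein moves lipids across the membrane, had 117, 128 and 150 CPM in d22 and 133, 144 and 153 CPM in pbs (-0.14 ± 0.08, SE, adjusted p 0.562) in a region shared with Ankzf1. In Atg9a 5 of 6 d22 libraries were below every pbs library, though d22 6 (133.2 CPM) was barely below pbs 2 (133.3 CPM). Per kb of called peak the log2 fold change of Atg9a was 0.02. Atg2b, which shares its region with Gskip, was at 0.01.

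The conjugation genes lay close to 0. All 12 lead regions had a log2 fold change between -0.20 and 0.19, and 0 of 12 had an unadjusted p under 0.05, against 10.9% of all regions. Atg16l1, which places the LC3 ligase on the membrane, had the lowest estimate, with 51.2, 80.4 and 87.5 CPM in d22 and 66.2, 91.5 and 102 CPM in pbs. Its log2 fold change was -0.20 ± 0.13 (SE), adjusted p 0.618, and -0.11 without d22 4, the lowest library. Atg5, the ligase's core subunit, had 70.0, 87.9 and 105 CPM in d22 and 81.4, 99.9 and 111 CPM in pbs (-0.18 ± 0.11, SE, adjusted p 0.603), and -0.12 without d22 1. Atg4b, the protease that trims LC3 and GABARAP, had the highest estimate, with 64.2, 70.4 and 81.5 CPM in d22 and 46.0, 64.2 and 82.9 CPM in pbs. Its log2 fold change was 0.19 ± 0.12 (SE), adjusted p 0.637, in a region shared with Thap4, and it ran from 0.12 without pbs 4 to 0.29 without pbs 6.

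The ubiquitin-like proteins and the enzymes that attach them differed little. Among the genes of the proteins that are attached, log2 fold changes were 0.14 for Map1lc3b, 0.12 for Map1lc3a, 0.11 for Gabarapl2, -0.05 for Gabarapl1 and 0.04 for Atg12. Gabarap was at 0.15 in its lead region at Phf23, where d22 4 had 463 CPM and the other d22 libraries at most 296, and at 0.08 in the region over its own start. Without d22 4 the lead region was at -0.01. Among the enzymes, the activating enzyme gene Atg7 was at -0.13 and the conjugating enzyme genes Atg3 and Atg10 at -0.05 and -0.08. The regions of Atg3, Atg12 and Map1lc3a also overlap neighbouring genes (Slc35a5, Ap3s1 and Pigu), so their tags cannot be given to one gene.

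Of the cargo receptors, Optn had the smallest p of all members after Ulk1. Optn encodes optineurin, a receptor for damaged mitochondria and bacteria. Its region (chr2:5059388-5064313) had 104, 114 and 130 CPM in d22 and 114, 144 and 153 CPM in pbs. Library pbs 1 (114) and pbs 6 (121) fell inside the d22 range, and 3 of 6 d22 libraries lay below every pbs library. The log2 fold change was -0.27 ± 0.09 (SE), with a p of 0.0101 and an adjusted p of 0.251, and per kb of called peak it was -0.04. Nbr1, a receptor that acts with p62, had 175, 191 and 233 CPM in d22 and 190, 221 and 250 CPM in pbs (-0.15 ± 0.09, SE, adjusted p 0.584), in a region shared with a neighbouring gene. Sqstm1 had 250, 295 and 329 CPM in d22 and 249, 282 and 320 CPM in pbs, a log2 fold change of 0.03 ± 0.09 (SE). Its interval of 2 standard errors ran from -0.14 to 0.20. Bnip3, a mitochondrial receptor induced by low oxygen, was at -0.09 over its start.

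The transcription factor genes had estimates near 0 over their starts, and the 2 tested regions of Tfeb had estimates of opposite sign. Mitf had 36.3, 55.7 and 70.5 CPM in d22 and 40.7, 48.5 and 66.1 CPM in pbs (0.13 ± 0.15, SE), which was 0.05 without d22 6 and 0.22 without d22 5 or pbs 5. Tfe3 had 89.8, 102 and 109 CPM against 74.9, 101 and 111 CPM (0.05 ± 0.10, SE). Tfeb region 1, over 2 of its 3 listed starts, was at 0.09 ± 0.13 (SE), and at -0.03 without d22 4. Tfeb region 2 (chr17:47760944-47764188) lies 23013 to 27151 bases downstream of those starts, and its values led to its being described. It had 6.38, 27.0 and 39.8 CPM in d22 and 19.2, 40.3 and 53.5 CPM in pbs, and the groups overlapped widely, with 1 of 6 d22 libraries below all pbs libraries. The log2 fold change was -0.72 ± 0.31 (SE), adjusted p 0.410, and that of called length -0.89, while tags per kb differed by 0.09.

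The lysosome genes had small estimates throughout, and 0 of 8 lead regions had an unadjusted p under 0.05, against 10.9% of all regions. Ctsd, the aspartic protease cathepsin D, had the highest, with 105, 133 and 167 CPM in d22 and 108, 117 and 132 CPM in pbs (0.12 ± 0.11, SE, adjusted p 0.735), and a log2 fold change of 0.06 without d22 4. Hexa, a subunit of the hexosaminidase that degrades gangliosides, had the lowest, with 32.1, 36.7 and 44.6 CPM in d22 and 36.0, 42.0 and 51.4 CPM in pbs (-0.19 ± 0.14, SE, adjusted p 0.671). Its region is shared with Tmem202. Lamp1 had 96.4, 114 and 133 CPM in d22 and 113, 122 and 160 CPM in pbs. Its log2 fold change of -0.16 ± 0.10 (SE), adjusted p 0.616, was -0.08 without pbs 6, the highest library.

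The other 5 lysosome genes lay between these values. Lamp2, the second membrane glycoprotein, was at -0.09, and the cysteine proteases Ctsb and Ctsl at -0.14 and 0.02. Lipa, the acid lipase, was at -0.14, and the channel gene Mcoln1 at -0.02 in its lead region near Pnpla6 and -0.08 over its start. The windows with the full TCACGTGA element thus belonged to genes at 0.12 (Ctsd), -0.08 (Mcoln1, region over the start) and -0.05 (Atg3), all inside the range in which most member regions lay.

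Tags are summed over called peaks only, so they depend on the called length by construction. The changes of tags and of length had the same sign in 34 of 49 regions (69.4%), against 71.6% of all regions. The median change of tags per kb was 0.10 in member regions and 0.09 in all regions, and 0 of 49 passed on that scale, where 5 of 12375 (0.0404%) did; 1 of 49, Ulk1 region 3, had an unadjusted p under 0.05 against 6.55%. The 6 members with an unadjusted p under 0.05 for length were Ulk1 regions 2 and 3, Atg14, Rb1cc1, Atg16l1 and Tfeb region 2. The last 3 had log2 fold changes of length of -0.35, -0.38 and -0.89, none of them past the adjusted threshold.

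**Figure D5:**
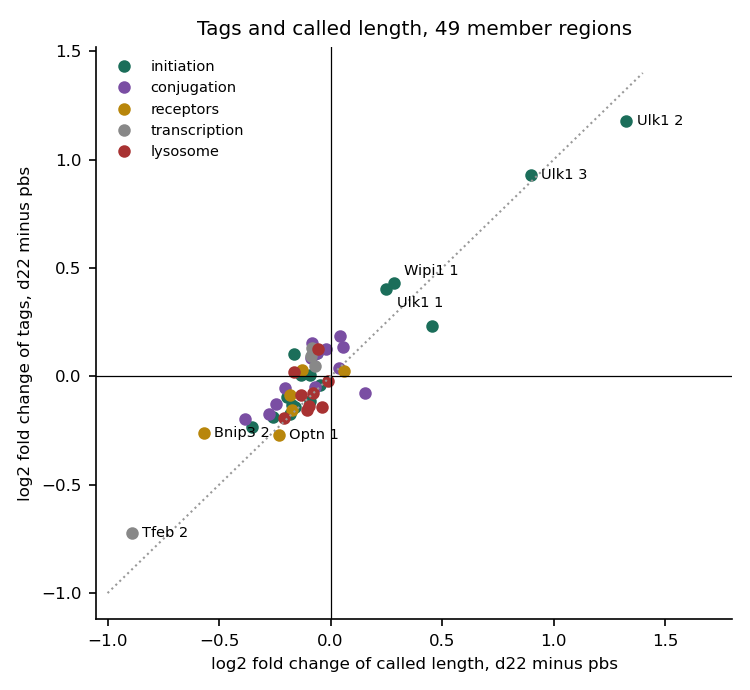
Each of the 49 member regions is placed by its log2 fold change of called length (x axis) and of tags (y axis), d22 minus pbs, coloured by role; the dotted line marks equal change. Regions far from 0, such as Ulk1 region 2 (1.33, 1.18) and Tfeb region 2 (-0.89, -0.72), lie near the line, and regions above it have a higher change of tags than of length.

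Summing every peak over a gene's extended span gave no call either. By gene totals 0 of 40 members passed, where 66 of 11326 genes (0.583%) did, and 5 of 40 had an unadjusted p under 0.05 against 10.6%. For Ulk1 the total was 209, 252 and 283 CPM in d22 and 106, 146 and 231 CPM in pbs, scaled to the tags in tested genes, and pbs 1 and pbs 6 gave the overlap. Its log2 fold change was 0.62 ± 0.18 (SE), adjusted p 0.178 in edgeR and 0.0445 in DESeq2 (235 of 11326 genes called), and 0.37 (unadjusted p 0.106) with library totals. The others were Wipi1 at 0.56, Atg14 at 0.33, Lipa at -0.23 and Optn at -0.28, with adjusted p between 0.264 and 0.442.

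Outside the tested regions, 115 member regions were called in some libraries only. Of these, 74 were called in 1 library, and 40 of the 74 in d22 4 alone. By Fisher's exact test 0 of the 38 regions called in 2 to 10 libraries passed, as did 0 of 16871 overall (0.0%), and 0 of 38 had an unadjusted p under 0.05 against 0.587%. With 6 libraries against 6, only regions called in 5 to 7 libraries can reach such a p, which leaves 9 of the 38. The smallest p was 0.0606 for a region in Atg7 (chr6:114646193-114647075) called in 4 d22 libraries and 0 pbs libraries. Library d22 4 alone supplied 15916 of the 27269 regions called in 1 library over the genome.

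Ddit4 was the 1 gene of the wider pathway that passed. Lists of 121 further genes gave 115 with a tested region, of which 1 was higher and 0 were lower, where 1.01% of all regions were called. Their median log2 fold change was 0.01, and 11 had an unadjusted p under 0.05. Ddit4 encodes a stress-induced inhibitor of mTORC1 (chr10:59948674-59953802). It had 214 ± 15.5 CPM in d22 and 160 ± 21.5 CPM in pbs (SD), a log2 fold change of 0.41 ± 0.09 (SE) and an adjusted p of 0.0392 in edgeR. The call was lost on leaving out d22 2, d22 3, d22 5, d22 6, pbs 2, pbs 3, pbs 4 or pbs 5 (adjusted p up to 0.114), among the 49 bp libraries (0.0944), with library totals as the scaling (0.18, adjusted p 0.392), per kb of called peak (0.26, 0.737) and with peaks of a score of at least 100 (0.0632).

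By list, the median log2 fold change was 0.06 for 33 further autophagy genes, -0.02 for 30 genes of mTORC1 and AMPK control, -0.02 for 37 further lysosome genes and 0.02 for 15 V-ATPase genes, and Ddit4 was the gene that passed in edgeR. DESeq2, with 272 of 12375 regions called, also called Galns (adjusted p 0.0389). With library totals, edgeR called 454 regions, of which only 26 were higher in d22. Of the 12 genes followed, Galns (0.0310), Psap (0.0255), Npc1 (0.0325) and Sesn1 (0.0394) were among the 454, all lower in d22. The regions of Galns and Sesn1 are shared with Aprt and Cep57l1. In mTORC1 and AMPK control the next smallest p belonged to the sestrins, Sesn2 at 0.24 and Sesn1 at -0.28. Among further autophagy genes they were Vps18 (-0.27) and Vps41 (-0.30), of the tethering complex for fusion with the lysosome, and Wdfy3 (0.22), an adaptor for aggregates. Among lysosome genes they were the sulfatase gene Galns (-0.42, adjusted p 0.0922), Psap (-0.28), the saposin precursor, and the cholesterol transporter gene Npc1 (-0.40). In the proton pump they were Atp6v0d1 (0.28, in a region shared with Agrp), Atp6v1e1 (0.20) and Atp6v0b (-0.18). In the pathway lists 11 of 115 genes had an unadjusted p under 0.05, beside the 10.9% of all regions.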

How the data were processed

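Peaks of 12 H3K9ac libraries (6 titled d22, 6 titled pbs) were used as the authors deposited them. Per the submitters' processing notes, CASAVA 1.8, Novoalign and MACS 1.4.2 were used, with mm10. Per the file headers, each library was called alone with MACS against the pooled input of its title group, with a p-value cutoff of 1e-05 and at most 1 tag per position. Per the file headers, the deposited tag counts are raw and unscaled, peak length and summit are in bp, and the deposited score is the negative log10 of the p-value, scaled up by 10. The input libraries and the bed files were not used here.

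Overlapping peaks were merged into consensus regions, and a library's count is the sum over its peaks in a region. A region absent from a list has no count, so only regions called in all 12 libraries were tested. The quasi-likelihood test of edgeR 4.0.16 (R 4.3.3; TMM, robust) was applied to counts, limma 3.58.1 (trend, robust, no pseudocount) to log2 called length, and Fisher's exact test, two-sided (SciPy 1.17.1), to occupancy. P-values were Benjamini-Hochberg adjusted over all regions or genes at 0.05. CPM was scaled by edgeR to the tags in tested regions. Standard errors of tag changes were derived from the F statistic. Depth per library, 6343891 to 13259411 tags, sets the counting error, which the tests of counts include. The main tests of called length and occupancy had no term for depth. Gene spans and promoter windows are from RefSeq tables of GRCm38.p6, the assembly behind mm10. The tests of tags and of called length were also run on simulated data, in which tags did not depend on called length. The test of occupancy was not.

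Members and gene lists were chosen with earlier results of these data known. Members were described when they passed, then by smallest p for tags until 12 were reached, plus the highest and lowest lead estimate of each role; other pathway genes when they passed or had one of the 3 smallest p of their list. No 2 libraries were duplicates (chi-square per degree of freedom 2.41 to 10.3 over 66 pairs). Alternatives were DESeq2 1.42.0, library totals as scaling, a mean of at least 50 tags, tags per kb, peaks with a score of at least 100, merging within 500 bp, depth as a covariate, gene spans with no extension, 49 bp libraries only, a replicate block and leaving out each library.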

Additional observations from a re-analysis of the deposited data

Results flagged for a closer look

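In 7 of 98 groups of 6 libraries (49 member regions in each title group), 1 library lay farther from the nearest other than Dixon's criterion at the 95% level allows; chance alone marks about 1 in 20 groups. Of the 7 values 5 belong to d22 4, the library with the most peaks. It had 102 CPM at Atg14 region 1 (next highest d22 library 69.9), 463 CPM at Gabarap region 1 (next 296), 180 CPM at Bnip3 region 1 (next 145) and 119 CPM at Tfeb region 1 (next 78.5). At Atg16l1 region 1 it had 51.2 CPM, below the next lowest d22 library at 74.7. The other 2 were pbs 2 with 111 CPM at Map1lc3b region 1 (next lowest 143) and pbs 6 with 160 CPM at Lamp1 region 1 (next highest 128). Without d22 4, the log2 fold change of Atg14 went from 0.23 to 0.11, of Gabarap from 0.15 to -0.01, of Bnip3 region 1 from -0.09 to -0.15, of Tfeb region 1 from 0.09 to -0.03 and of Atg16l1 from -0.20 to -0.11.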

How the results depend on the processing

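Region calls by tags (125) became 272 with DESeq2, 454 with library totals (26 of them higher in d22, against 56 of 125), 5 with tags per kb and 39 among the 49 bp libraries; leaving out 1 library gave 64 to 139. Length calls (0) became 16 with depth as a covariate and 1 among the 49 bp libraries, and 0 to 35 without 1 library. Gene calls (66) became 235 with DESeq2, 197 with library totals and 38 with no extension, and 37 to 68 without 1 library. Occupancy gave 0 calls in each alternative.

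Tags of all 49 member regions were followed under the alternatives. Length was followed only in the 9 with an unadjusted p under 0.05 for tags or length, and gene totals only in the 5 genes with one. Of these, DESeq2 called Ulk1 region 1 (adjusted p 0.0206) and the Ulk1 gene total (0.0445), and library totals called Optn (-0.49, 0.0269). The 49 bp libraries, with 3 pbs libraries left, called Ulk1 regions 1 and 3 and the length of region 3 (1.702, 0.0227). Title numbers did not pair the libraries: correlations of same-numbered libraries were -0.0067 to 0.157, and 1 of 6 d22 libraries correlated best with its own number. With the replicate block, region calls were 128, gene calls 54 and length calls 0. The block called Ulk1 region 1 (0.42), region 2 (1.41) and the gene total (0.67) and turned Atg13 region 1 to -0.0070, and Ddit4 lost its call (adjusted p 0.0833). Leaving out 1 library, only the removal of pbs 6 called a member, Ulk1 region 1; across removals the 3 Ulk1 regions ran from 0.35 to 0.47, 0.98 to 1.45 and 0.75 to 1.27. With library totals they were 0.16, 0.93 and 0.65 and the gene total 0.37, and merging within 500 bp joined them into 1 region at 0.64. Wipi1 region 1 was 0.21 with library totals.

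With library totals, which shift the median of all regions to -0.22, 20 estimates changed sign: Ulk2 region 1 at -0.12, Atg13 region 1 at -0.22, Atg2a region 2 at -0.11, Atg2b region 1 at -0.22, Atg4b region 1 at -0.037, Atg12 region 1 at -0.18, Map1lc3a region 1 at -0.11, Map1lc3b region 1 at -0.11, Gabarap region 1 at -0.079, Gabarap region 2 at -0.13, Gabarapl2 region 1 at -0.12, Sqstm1 region 1 at -0.20, Nbr1 region 2 at -0.22, Tfeb region 1 at -0.14, Tfe3 region 1 at -0.18, Mitf region 1 at -0.076, Ctsd region 1 at -0.12, Ctsl region 1 at -0.20, Atp6v1e1 at -0.029, Wdfy3 at -0.016. With tags per kb (median of all regions 0.09) 21 did: Atg101 region 1 at 0.057, Rb1cc1 region 1 at 0.11, Atg14 region 1 at -0.21, Atg2a region 1 at 0.043, Atg9a region 1 at 0.016, Atg9a region 2 at 0.019, Wipi2 region 1 at 0.10, Atg3 region 1 at 0.16, Atg5 region 1 at 0.10, Atg7 region 1 at 0.11, Atg16l1 region 1 at 0.16, Gabarapl1 region 1 at 0.032, Nbr1 region 1 at 0.021, Bnip3 region 1 at 0.11, Bnip3 region 2 at 0.11, Tfeb region 2 at 0.094, Lamp2 region 1 at 0.054, Hexa region 1 at 0.029, Atp6v0b at 0.20, Vps41 at 0.10, Psap at 0.053. Among the 49 bp libraries 7 did: Atg13 region 1 at -0.061, Atg10 region 1 at 0.049, Gabarap region 2 at -0.071, Sqstm1 region 1 at -0.0053, Nbr1 region 2 at -0.23, Bnip3 region 2 at 0.11, Ctsl region 1 at -0.0033. With a score of at least 100, Atg14 region 1 at -0.025 and Tfe3 region 1 at -0.015 did, and with merging within 500 bp, Lamp2 region 1 at 0.050. Leaving out 1 library turned 11 members, whose ranges were Atg13 region 1 -0.035 to 0.090, Atg2b region 1 -0.015 to 0.058, Atg9a region 2 -0.085 to 0.0092, Atg12 region 1 -0.010 to 0.094, Gabarap region 1 -0.0063 to 0.22, Sqstm1 region 1 -0.0058 to 0.081, Nbr1 region 2 -0.11 to 0.20, Tfeb region 1 -0.026 to 0.16, Tfe3 region 1 -0.0042 to 0.092, Ctsl region 1 -0.0054 to 0.048, Mcoln1 region 1 -0.084 to 0.041. A score of at least 100 left 44 of 49 member regions with a value. Under a mean of at least 50 tags 47 remained. The widest standard errors of tags were those of Bnip3 region 2 (0.43), Ulk1 region 3 (0.39) and Ulk1 region 2 (0.37), which limits what these libraries can show there.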
